A study of Mus musculus with 25 samples.

Results

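The subunits of the cytosolic chaperonin CCT (also called TRiC) were followed across germ cell clusters and genotypes in single cells of the mouse testis. CCT is a barrel of stacked rings that closes around unfolded proteins and folds them with the energy of ATP. Actin and tubulin are its classic clients, and it also folds WD40-repeat proteins such as the G protein β subunits and the cell cycle activators CDC20 and FZR1. Each ring holds 8 different subunits in a fixed order, and in yeast the subunits on one side of the ring bind ATP more tightly than those on the other. Germ cells divide, round up and rebuild their microtubules as they pass from mitosis into meiosis, and these steps draw on tubulin and actin.

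The 8 genes Tcp1, Cct2, Cct3, Cct4, Cct5, Cct6a, Cct7 and Cct8, which encode the 8 subunits of the ring, were chosen by name. Of these, 7 had a row among the 14103 genes of the expression matrix, and Cct6a is not analysed here. Tcp1 encodes the α subunit, Cct2 the β, Cct3 the γ, Cct4 the δ, Cct5 the ε, Cct7 the η and Cct8 the θ subunit. In the mouse genome build GRCm38 they lie on 7 different chromosomes, Tcp1 on 17 (12916329 to 12925067), Cct2 on 10 (117050997 to 117063852), Cct3 on 3 (88297135 to 88321766) and Cct4 on 11 (22990593 to 23003336). Cct5 lies on chromosome 15 (31590800 to 31601846), Cct7 on 6 (85451505 to 85468477) and Cct8 on 16 (87483325 to 87495869).

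The study concerns YTHDC2, an RNA helicase with an m6A-binding YTH domain that mouse germ cells need to enter meiosis. The single-cell part holds 2 Ythdc2 KO samples and 1 WT sample of postnatal day 10 cells sorted for a 4N DNA content, a gate that holds both cycling cells after DNA replication and cells in meiotic prophase. Their titles also carry the word embryo, and the age label was followed. Bulk RNA-seq of YTH-domain and helicase mutants (E332Q) and iCLIP belong to the series and were not analysed here. The labels do not say which part of the gene the KO line lacks. The mutant lines were made in a hybrid of C57BL/6 and DBA/2.

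The libraries named KO A and KO B for this comparison held 1522 and 1855 cells and the WT library 1151. Total depth was 18089957 and 25447581 unique molecular identifiers (UMIs, counted RNA molecules) in the KO libraries, against 16342955 in WT. Ythdc2 itself stood at 47.0 and 42.6 CPM (scaled UMIs of a gene over all UMIs of its group of cells) in the KO libraries, against 196 CPM in WT, in the direction of the labels. The median mitochondrial share was 9.11% and 6.64% in KO, against 5.59% in WT. The authors' clusters were used and numbered. They named cluster 1 for undifferentiated and cluster 2 for differentiating spermatogonia. Cluster 3 carries the name of leptotene and zygotene spermatocytes, and the names of clusters 4 and 5 join those of clusters 2 and 3. KO A and KO B gave cluster 1 66 and 90 cells, against 45 from WT. Cluster 2 took 529 and 814 KO cells, against 654 from WT. Cluster 3 had 427 WT cells and 0 from either KO library. Cluster 4 took 592 and 441 KO cells, against 24 from WT, and cluster 5 took 335 and 510, against 1. The summed markers of undifferentiated spermatogonia stood at 491 to 677 CPM in cluster 1 and at most at 51.4 elsewhere, and those of leptotene-zygotene cells at 7552 CPM in cluster 3 and 906 to 920 in cluster 1. The 6 markers of differentiating spermatogonia went against the name of cluster 2: they summed to 990.1 and 1037 CPM in KO cluster 2, against 696 CPM in WT, and were higher in KO cluster 5 (2569 and 2405 CPM) and in WT cluster 3 (1763 CPM). All 5 markers of peritubular myoid cells, a smooth muscle cell of the tubule wall, were in the matrix and summed to 1291 and 1546 CPM in cluster 1 of the KO libraries, against 2769 CPM in WT. A total of 34 cells carried 10 or more UMIs of genes of smooth muscle, stroma or red blood cells, and 33 of them lay in cluster 1. The summed CCT level of cluster 1 and its levels of Cct2, Cct4, Cct5 and Cct8 are also given without them. No barcode was shared between libraries (0 of 4528).

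Summed over the 7 subunits, CCT messages held a narrow range. The sum was 4129 and 4024 CPM in cluster 1 of KO A and KO B, against 3988 CPM in WT. In cluster 2 it was 3574 and 3586 CPM in the KO libraries, against 4189 CPM in WT. Both KO libraries lay below WT in cluster 2, and in cluster 1 both lay above it. There KO B lay within the WT counting interval (3862 to 4116 CPM) and KO A just above its upper end. Cluster 4 held 3637 and 3650 CPM in KO, against 4059 CPM in the 24 WT cells (3806 to 4325, exact Poisson 95% interval, which covers counting error only). The KO cells of cluster 5 held 3581 and 3557 CPM, and WT cluster 3 held 3527 CPM (3477 to 3577). Over the 12 groups of at least 20 cells the highest sum, in WT cluster 2, was 1.19-fold the lowest, in WT cluster 3. That order rests on the scale. The tests below use mean normalised UMIs per cell (count/size factor). On that scale the sum was 45.8 in WT cluster 2 and 40.8 in WT cluster 3. KO clusters 2, 4 and 5 held 35.8 to 38.0, below WT cluster 3. Without the 33 cells that carry UMIs of muscle, stroma or red blood cells the sum in cluster 1 was 4398 and 4312 CPM in KO, against 4409 CPM in WT. All germ cells together held 3635 and 3620 CPM in KO, against 3954 CPM in WT, a difference of -0.12 on the log2 scale (exact permutation test, 2-sided, p = 0.333, the smallest that 1 library against 2 can give). The same test gave exact p = 0.333 in clusters 2 and 4 and 0.667 in cluster 1.

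The single subunits varied more than their sum. Cct3 had the widest range over the 12 groups, 2.33-fold between its lowest and highest CPM, followed by Cct5 (2.13-fold), Cct8 (2.05-fold) and Cct2 (1.80-fold). Cct4 and Cct7 ranged over 1.57-fold and 1.55-fold and Tcp1 over 1.38-fold. KO A and KO B stayed close within each cluster: their CPM differed most for Cct7 in cluster 2, by 0.14 on the log2 scale. The clusters were made from the expression of these same cells, so levels of one cluster beside another are a description and carry no test.

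**Figure D1:**
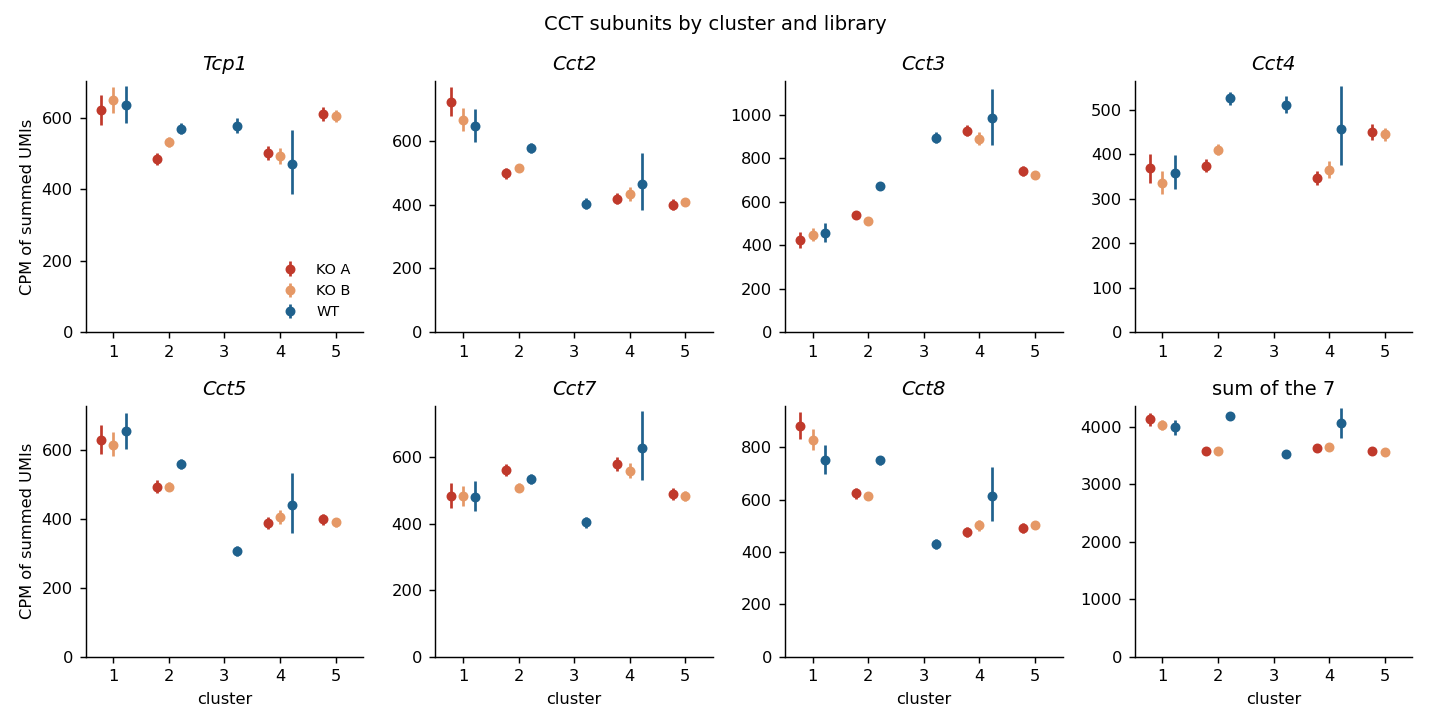
CPM of each CCT subunit and of the 7 together (vertical axes, from 0) in clusters 1 to 5 (horizontal axes), for KO A, KO B and WT, with exact Poisson 95% intervals that cover counting error only. Groups of fewer than 20 cells are left out. Cct3 is lowest in cluster 1 and highest in clusters 3 and 4, Cct2, Cct5 and Cct8 are highest in cluster 1, and Cct4 in cluster 2 lies at 375 and 410 CPM in KO and 525 CPM in WT.

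Cct2, Cct5 and Cct8 were highest in the undifferentiated spermatogonia of cluster 1. Cct8 stood at 881 and 828 CPM in cluster 1 of the KO libraries, against 752 CPM in WT (698 to 809). In cluster 2 it stood at 623 and 615 CPM in KO, against 750.1 CPM in WT. Its level was 476 and 501 CPM in KO cluster 4 and 491 and 504 CPM in KO cluster 5, and 430.3 CPM in WT cluster 3. In KO the order of Cct8 ran from cluster 1 through cluster 2 down to clusters 4 and 5, whose values overlapped. In WT, with all cells kept, clusters 1 and 2 did not differ beyond the counting error of cluster 1. WT cluster 3 was 1.74-fold below WT cluster 2. Without the cells that carry UMIs of smooth muscle, stroma or red blood cells, Cct8 in WT cluster 1 was 841 CPM, above WT cluster 2. In KO cluster 1 it was then 952 and 897 CPM. The order of clusters 1 and 2 in WT therefore rests on those cells.

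Cct2, whose protein also acts as a receptor for aggregated proteins in autophagy, followed the same order. It stood at 722 and 666 CPM in KO cluster 1, against 647 CPM in WT, and at 498 and 514 CPM in KO cluster 2, against 579 CPM in WT. Clusters 4 and 5 of KO held 400.1 to 433 CPM, and WT cluster 3 held 403 CPM. Cct5, mutated in a hereditary sensory neuropathy of humans, stood at 632 and 617 CPM in KO cluster 1, against 656 CPM in WT. In cluster 2 it stood at 495 and 494 CPM in KO, against 559.7 CPM in WT. The KO cells of clusters 4 and 5 held 389 to 407 CPM of Cct5, while WT cluster 3 held 308 CPM (294 to 324), below every KO group. Without the cells that carry UMIs of smooth muscle, stroma or red blood cells, Cct2 in cluster 1 was 779 and 719 CPM in KO, against 727 CPM in WT. Cct5 was then 676 and 660.4 CPM in KO, against 735 CPM in WT.

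Cct3 ran the other way. It stood at 422 and 447 CPM in KO cluster 1, against 457 CPM in WT, and at 537 and 511 CPM in KO cluster 2, against 672 CPM in WT. In KO cluster 4 it reached 926 and 890.3 CPM, against 983 CPM in the 24 WT cells (861 to 1118), and WT cluster 3 held 893 CPM (868 to 918). KO cluster 5 stood between, at 741 and 725 CPM. Within each KO library Cct3 was 1.72-fold (KO A) and 1.74-fold (KO B) higher in cluster 4 than in cluster 2, and in WT it was 1.33-fold higher in cluster 3 than in cluster 2. Its share of all CCT UMIs was 10.2% and 11.1% in KO cluster 1, against 11.5% in WT, and 25.5% and 24.4% in KO cluster 4, against 24.2% in WT. In WT cluster 3 the share was 25.3% (24.7 to 25.9, exact binomial 95% interval).

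**Figure D2:**
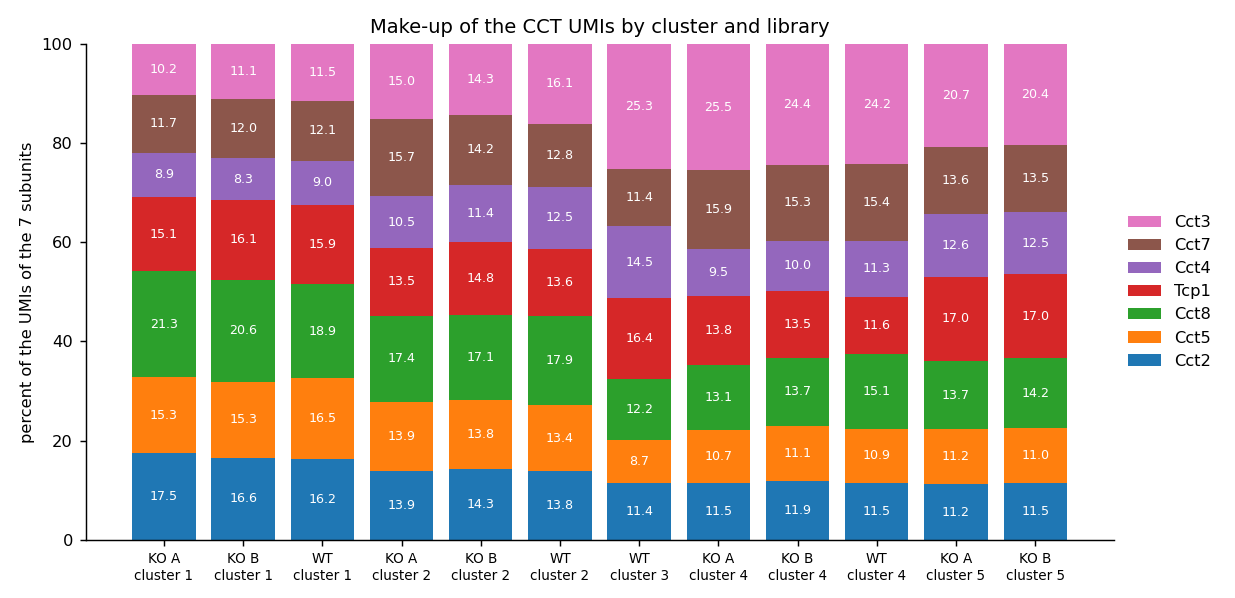
Percent of the UMIs of the 7 CCT subunits that each subunit held (vertical axis), in the 12 groups of library and cluster with at least 20 cells (horizontal axis). The share of Cct3 goes from 10.2% in cluster 1 of KO A to 25.5% in cluster 4 of KO A, and that of Cct8 from 21.3% to 13.1%. Shares of different subunits also depend on transcript length and capture, so they are read along a subunit and not between subunits.

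Cct4, whose mutation causes a sensory neuropathy in rats, was low in cluster 1, at 368 and 335 CPM in KO, against 359 CPM in WT. In cluster 2 it stood at 375 and 410.3 CPM in KO, against 525 CPM in WT. Cluster 4 held 346 and 365 CPM in KO, against 458 CPM in WT (375 to 553). KO cluster 5 held 451 and 445 CPM, and WT cluster 3 held 511 CPM (492 to 530.1). In WT the level of cluster 2 was 1.46-fold that of cluster 1, against 1.02-fold in KO A and 1.23-fold in KO B. Without the cells that carry UMIs of smooth muscle, stroma or red blood cells, cluster 1 held 389 and 356 CPM in KO, against 386 CPM in WT. Cluster 2 of KO A then lay below its cluster 1, while in KO B and WT cluster 2 still lay above cluster 1.

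Tcp1, the founding member of the family, had the narrowest range of the 7. It stood at 622 and 648 CPM in KO cluster 1, against 635 CPM in WT, and at 484 and 532 CPM in KO cluster 2, against 569 CPM in WT. KO cluster 4 held 501 and 494 CPM, against 470.3 CPM in WT (387 to 566), and the levels of KO cluster 5, 610.0 and 604 CPM, were 1.22-fold above cluster 4 in each KO library. WT cluster 3 held 578 CPM, below KO cluster 5. As normalised UMIs per cell the order was the other way, with 6.81 in WT cluster 3, against 6.50 and 6.46 in KO cluster 5. Cct7 was nearly level in cluster 1, at 482 and 483 CPM in KO, against 481 CPM in WT, and stood at 561 and 508 CPM in KO cluster 2, against 534 CPM in WT. Cluster 4 held 579 and 559 CPM in KO, against 627 CPM in WT (530.1 to 737). KO cluster 5 held 489 and 482 CPM, and WT cluster 3, at 404 CPM, was the lowest group for Cct7. In cluster 2 the WT value of Cct7 lay between the values of KO A and KO B.

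Across the 12 groups Cct2, Cct5 and Cct8 moved together, and Cct3 moved against them. The Pearson r of log2 levels was 0.95 for Cct2 with Cct5, 0.97 for Cct2 with Cct8 and 0.96 for Cct5 with Cct8. Cct3 had r of -0.84 with Cct2, -0.84 with Cct5 and -0.80 with Cct8. Tcp1 and Cct7 also ran against each other (-0.76). These r are descriptions over groups that share 3 libraries and 5 clusters, and in the 8 KO groups alone the first 3 pairs had 0.99, 0.99 and 0.99 and the Cct3 pairs -0.89 to -0.94. Cct2 and Cct5 belong to the side of the ring that binds ATP tightly in yeast, with Cct4 and Tcp1, and Cct8 belongs to the other, with Cct3 and Cct7. The grouping by level therefore crosses the sides of the ring.

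**Figure D3:**
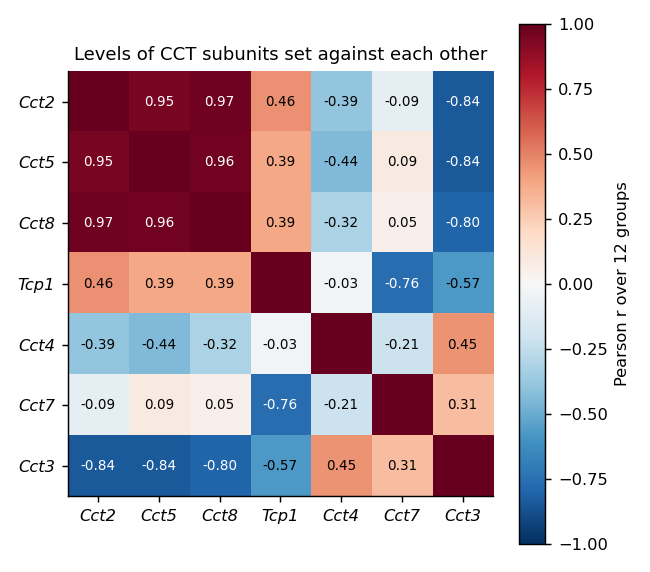
Pearson r between the log2(CPM + 1) of each pair of CCT subunits over the 12 groups of library and cluster, from -1 (blue) to 1 (red). The block of Cct2, Cct5 and Cct8 has r of 0.95 to 0.97, and Cct3 has -0.84 to -0.80 with them.

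The promoters of the 3 subunits that moved together and of Cct3 are shown to let their sequences be set side by side, from 250 bases before to 50 after the RefSeq start (build GRCm38.p6), each on the strand of its gene. Capitals mark matches, on either strand, to CCGGAAG, the core of ETS factor sites, or to CCAAT.
Cct2 (chr10:117063803-117064102, minus strand): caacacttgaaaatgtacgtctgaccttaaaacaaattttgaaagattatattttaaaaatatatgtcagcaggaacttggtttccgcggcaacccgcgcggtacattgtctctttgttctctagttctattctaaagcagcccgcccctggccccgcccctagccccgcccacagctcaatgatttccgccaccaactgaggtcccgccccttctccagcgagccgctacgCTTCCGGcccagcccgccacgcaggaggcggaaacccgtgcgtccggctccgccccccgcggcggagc
Cct8 (chr16:87495820-87496119, minus strand): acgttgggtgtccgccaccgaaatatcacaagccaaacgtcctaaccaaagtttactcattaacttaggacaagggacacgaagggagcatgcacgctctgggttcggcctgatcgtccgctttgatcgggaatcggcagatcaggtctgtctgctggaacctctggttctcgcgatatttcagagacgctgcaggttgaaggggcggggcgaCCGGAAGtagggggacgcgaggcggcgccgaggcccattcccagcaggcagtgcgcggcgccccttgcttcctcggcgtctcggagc
Cct5 (chr15:31601797-31602096, minus strand): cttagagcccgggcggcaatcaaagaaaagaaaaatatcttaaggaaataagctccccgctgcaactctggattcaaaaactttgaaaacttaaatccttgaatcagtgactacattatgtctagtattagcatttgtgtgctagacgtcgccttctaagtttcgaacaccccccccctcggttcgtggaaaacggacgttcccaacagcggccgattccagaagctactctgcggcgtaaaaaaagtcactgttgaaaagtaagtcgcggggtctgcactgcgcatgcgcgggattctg
Cct3 (chr3:88296885-88297184, plus strand): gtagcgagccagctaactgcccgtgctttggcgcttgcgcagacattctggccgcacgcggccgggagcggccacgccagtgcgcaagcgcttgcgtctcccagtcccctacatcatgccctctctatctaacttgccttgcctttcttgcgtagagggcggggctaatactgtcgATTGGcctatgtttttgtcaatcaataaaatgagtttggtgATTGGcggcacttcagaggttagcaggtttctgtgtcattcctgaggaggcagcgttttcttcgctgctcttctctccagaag

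RefSeq listed 8 promoters for 6 of the members, with a further start for each of Cct2 and Cct5, and Cct4 had no entry in the table. CCGGAAG was in 3 of the 8, those of Tcp1, Cct2 and Cct8 (8.86% of 32851 promoters). CCAAT was in 3 of the 8, with 1 match in Tcp1, 2 in Cct3 and 3 in Cct7 (37.4% of all). The heat shock element GAANNTTC was in 1, the further start of Cct2 (7.86% of all), and the E-box CACGTG in 0 (7.15% of all). The motifs do not overlap each other in these windows, both strands were searched, and a match describes the letters alone. Of the printed promoters that of Cct2 had 57.3% GC, that of Cct8 60.3%, that of Cct5 47.3% and that of Cct3 55.3%, and the median of all promoters was 52.7%.

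The KO and WT comparison asks how these messages differ in cells that lack YTHDC2. Mean normalised UMIs per cell were compared per library with limma on the log2(value + 0.01) scale, and genes with an adjusted p under 0.05 (Benjamini-Hochberg over all genes tested) were called. With 2 KO libraries and 1 WT library the spread comes from the KO libraries alone, and WT, with a single library, is taken to have the same spread. limma also pools the spread over genes of like level. In clusters 3, 4 and 5, and for their difference from cluster 2, it used the pooled spread alone. The p-values there do not measure the spread of the single subunit between libraries. No source used here says that the KO libraries are of separate animals, so the p-values cover the spread between libraries, which may be technical. For WT, genotype cannot be told apart from library.

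In all germ cells together Cct4 fell in KO, and the other 6 subunits did not pass the test. Cct4 held 3.80 and 4.15 normalised UMIs per cell in the KO libraries (3.97 ± 0.25, SD, n = 2), against 5.65 in WT. Both KO libraries lay below WT, and the fold was 1.42 down (log2 -0.51, SE 0.14; limma adjusted p = 0.0065). Of the 7 subunits 1 was called lower and 0 higher, beside 14.8% of all 9637 genes called lower and 18.3% called higher, 33.1% in all. edgeR (TMM or RLE scaling) and DESeq2 also called Cct4 alone, beside 30.8%, 31.8% and 12.6% of these genes. The other subunits had log2 differences of -0.29 (Cct8), -0.26 (Cct2), -0.25 (Cct3), -0.23 (Tcp1), -0.20 (Cct5) and 0.02 (Cct7), with adjusted p of 0.147 or more. The median of the 7 was -0.25, where that of all genes was 0.02. The clusters are mixed in different shares here, with 34.8% and 43.9% of KO A and KO B cells in cluster 2 and 56.8% of WT cells.

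The same direction of Cct4 was seen within the spermatogonia. These cells are part of all germ cells and are set against the same WT library, so this is no independent support. In clusters 1 and 2 together Cct4 held 3.63 and 4.12 normalised UMIs per cell in KO, against 5.51 in WT (log2 -0.51, SE 0.14), and limma's adjusted p was 0.0518. limma called 0 of the 7 subunits there, with 2 at an unadjusted p under 0.05 (Cct4 and Cct3), edgeR called 1 (Cct4, with TMM or RLE scaling) and DESeq2 0, beside 4.99% of 9812 genes called by limma, 1.65% lower and 3.34% higher. edgeR called 7.31% (TMM) and 8.97% (RLE) of the genes and DESeq2 0.642%. All 7 log2 differences were below 0, from -0.51 for Cct4 and -0.44 for Cct3 to -0.07 for Cct7, with a median of -0.26 where that of all genes was 0.03.

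In cluster 2 alone, where each library has over 500 cells, the differences were of like size. Cct4 held 3.61 and 4.17 normalised UMIs per cell in KO, against 5.61 in WT (log2 -0.53, SE 0.14; limma adjusted p = 0.0555). Cct3 held 5.56 and 5.43 in KO, against 7.49 in WT (log2 -0.45, SE 0.15; limma adjusted p = 0.0992). Cct8 held 6.21 and 6.34 in KO, against 8.15 in WT (log2 -0.38, SE 0.16; limma adjusted p = 0.164). Cct2 held 5.02 and 5.30 in KO, against 6.30 in WT, and Cct5 held 4.96 and 5.15 in KO, against 6.20 in WT. In both of them both KO libraries lay below WT, by more than the KO libraries differed from each other. The same held for the 3 genes Cct4, Cct3 and Cct8. limma called 0 of 7, with these 3 at an unadjusted p under 0.05, while edgeR called 2 (Cct3 and Cct4) and DESeq2 0. The background was 4.30% of 9435 genes in limma, 1.43% lower and 2.87% higher. It was 15.0% in edgeR with TMM, 13.1% with RLE and 0.530% in DESeq2. The other subunits had log2 differences of -0.29 (Cct5), -0.29 (Cct2), -0.27 (Tcp1) and -0.06 (Cct7), and the median of the 7 was -0.29 where that of all genes was 0.03.

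Cells of cluster 2 differed between the genotypes in other ways as well. The median depth was 9667 and 11793.5 UMIs per cell in KO, against 14298.5 in WT. All 9 leptotene-zygotene markers were in the matrix and summed to 2038 and 2248 CPM in KO, against 3096 CPM in WT. The markers of differentiating spermatogonia were higher in KO than in WT, as given above, and the 8 markers of mitotic M phase summed to 3653 and 3655 CPM in KO, against 4015 CPM in WT. Globin genes reached 444 CPM in KO A alone, and were at 1.07 CPM in KO B and 0.62 CPM in WT. Leaving out cells rich in smooth muscle, stroma or globin UMIs took cluster 2 of KO A from 529 to 528 cells. KO B (814) and WT (654) were unchanged, so the setting given next differs by a single cell. Without the cells that carry 10 or more UMIs of smooth muscle, stroma or globin Cct4 was called (log2 -0.53; limma adjusted p = 0.0437), beside 6.10% of all genes. With every cell thinned to 5000 UMIs it was called too (log2 -0.48; limma adjusted p = 0.0210), beside 6.83%. It was not called without the marked doublets (limma adjusted p = 0.0825), with no filter on low genes (0.217) or in DESeq2 (0.154), and the first 2 of these called 1.20% and 0.0214% of the genes. The part of the marker levels in these results was not tested.

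The cells furthest along in each genotype are KO cells of clusters 4 and 5 and, mostly, WT cells of cluster 3. In these Cct4 fell again, with 3.91 and 4.18 normalised UMIs per cell in KO, against 5.85 in WT (log2 -0.53, SE 0.11; limma adjusted p = 7.3e-06). A larger absolute difference was seen in 44.6% of all genes, whose median absolute log2 difference was 0.47. Of the 7 subunits 1 was called lower and 0 higher, beside 29.1% of 9299 genes called lower and 37.4% called higher, 66.5% in all. On simulated data this fit called more unchanged genes than its threshold allows, nearly all of low level and none at the level of the members. The share called in all may therefore be too high, and calls of low genes in this class are less certain. The simulation gave every gene and library the same spread setting and KO and WT the same profile of cells. It does not show how calls at the members' level fare in the real libraries. edgeR called 59.2% of the genes with TMM, with RLE 29.6% higher and 30.4% lower, and DESeq2 38.7% in all. Cct3 held 8.72 and 8.25 in KO, against 10.3 in WT (log2 -0.29, SE 0.14; limma adjusted p = 0.0614), and Tcp1 held 5.50 and 5.69 in KO, against 6.69 in WT (log2 -0.26, SE 0.12; limma adjusted p = 0.0506). Both missed the threshold in limma, and edgeR and DESeq2 called Cct3 lower. Cct7 held 5.59 and 5.27 in KO, against 4.75 in WT (log2 0.19, SE 0.12). Cct5 held 3.98 and 4.05 in KO, against 3.61 in WT (log2 0.15, SE 0.11). Neither passed the test, nor did Cct2 (-0.13) and Cct8 (0.00). The 2 KO clusters, each set against WT cluster 3, had Cct4 called in common and no other subunit. In KO cluster 4 limma called Cct4 (-0.77) and Tcp1 (-0.48) lower and Cct7 (0.27) higher, and in KO cluster 5 it called Cct4 (-0.32) and Cct3 (-0.40) lower and Cct5 (0.23) higher. These are 3 of 7 each, below the 64.4% (KO cluster 4) and 63.5% (KO cluster 5) of all genes called in the same fits, and the difference between the 2 KO clusters was not tested. This split by KO cluster was chosen after seeing the data. Every class is set against the same WT library, so the like Cct4 values of the classes are no independent support.

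**Figure D4:**
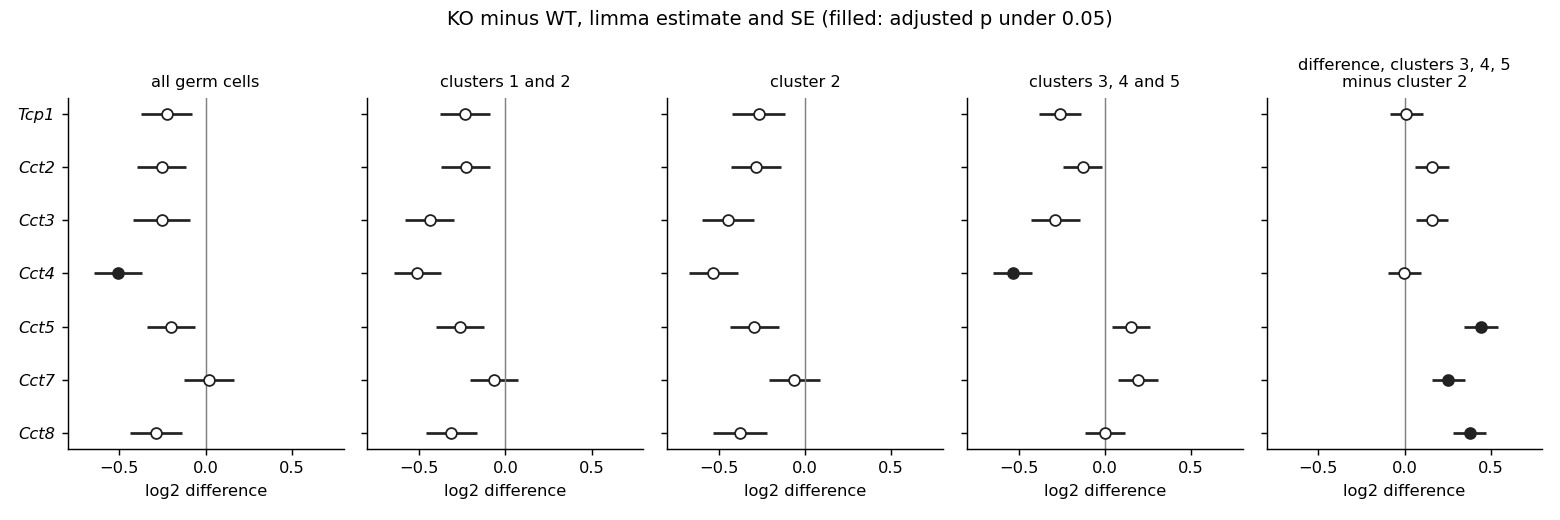
KO minus WT log2 difference of each CCT subunit (horizontal axes) with its standard error, as estimated by limma from 2 KO libraries and 1 WT library, in 4 classes of cells and, in the last panel, for the difference between clusters 3, 4 and 5 and cluster 2. Filled points had an adjusted p under 0.05. Cct4 lies at -0.51 to -0.53 in all 4 classes, and the last panel has Cct5 at 0.44, Cct8 at 0.38 and Cct7 at 0.25. The classes share 1 WT library and some share cells, so they are not independent.

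To ask whether the genotype difference changes along differentiation, the step between clusters 3, 4 and 5 and cluster 2 was taken within each library and then compared between KO and WT. For 3 of the 7 subunits the step differed, all with KO higher relative to WT in the later cells (29.0% of 9823 genes were called in that direction, 21.4% in the other and 50.4% in all). The count is near this background and is not a result about the members. Of all genes 46.2% had a larger absolute value than Cct5, 52.7% than Cct8 and 66.6% than Cct7. Cct5 had the largest such value, 0.44 on the log2 scale (SE 0.10; limma adjusted p = 2.3e-05). Its genotype difference was -0.29 in cluster 2 and 0.15 in clusters 3, 4 and 5. In CPM, Cct5 was 1.27-fold (KO A) and 1.22-fold (KO B) lower in cluster 4 than in cluster 2, against 1.81-fold lower in cluster 3 than in cluster 2 of WT. In KO cluster 5 it was 1.24-fold and 1.27-fold lower than in cluster 2. Cct8 had 0.38 (SE 0.10; limma adjusted p = 2.9e-04), with a genotype difference of -0.38 in cluster 2 and 0.00 in the later cells. It was 1.31-fold and 1.23-fold lower in cluster 4 than in cluster 2 of KO, against 1.74-fold between clusters 3 and 2 of WT, and 1.27-fold and 1.22-fold lower in KO cluster 5. Cct7 had 0.25 (SE 0.10; limma adjusted p = 0.0188). Its CPM in cluster 4 was 1.03-fold and 1.10-fold that of cluster 2 in KO, while in WT it was 1.32-fold lower in cluster 3 than in cluster 2. In KO cluster 5 Cct7 was lower than in cluster 2 too, 1.15-fold and 1.05-fold. The 24 WT cells of cluster 4 can be set beside WT cluster 2 as well. There Cct5 was 1.27-fold and Cct8 1.22-fold lower, and Cct7 1.17-fold higher, than in WT cluster 2, close to the KO values for the same clusters. Genotype and cluster cannot be told apart in the later class as a whole.

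The step of Cct4 did not differ detectably between the genotypes (log2 0.00, 95% interval -0.19 to 0.19). Nor did that of Tcp1 (0.01, -0.18 to 0.20), Cct2 (0.16, -0.03 to 0.35) and Cct3 (0.16, -0.03 to 0.35). The median of the 7 was 0.16 where that of all genes was 0.07.

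Single cells held enough CCT UMIs to see the sum, and few enough to blur the single subunits. The median cell of cluster 2 held 34 and 42 CCT UMIs in KO, against 57 in WT, at unequal depth. With every cell thinned to 5000 UMIs (0 cells were shallower) the median was 17 and 17 in KO cluster 2 (quartiles 13 to 21 and 14 to 20), against 20 in WT (17 to 24). The quartile ranges of KO and WT overlapped. In cluster 1 the thinned median was 19 and 19 in KO, against 17 in WT, and in clusters 4 and 5 of KO it was 18 throughout, with 17 in WT cluster 3. A median of 6 or 7 of the 7 subunits was detected per thinned cell in the libraries as a whole. Within cluster 2 the thinned counts of 2 subunits were correlated at r of -0.06 to 0.13 across cells, over 21 pairs in each library, too weak in sparse counts to be a finding.

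**Figure D5:**
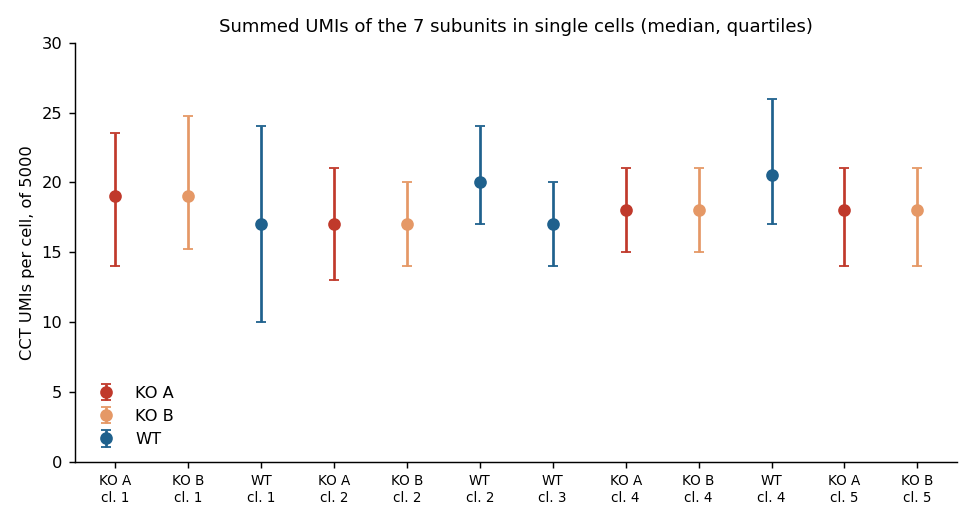
UMIs of the 7 CCT subunits per cell after thinning each cell to 5000 UMIs (vertical axis), as median with lower and upper quartiles, for the 12 groups of library and cluster (horizontal axis). Medians lie between 17 and 20.5, and in cluster 2 KO A and KO B have 17 and WT has 20.

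The genes most like the mean profile of the members over the 12 groups, among 6969 genes with at least 20 CPM, were Prkar1a (r = 0.96), which encodes a regulatory subunit of protein kinase A, Mrps30 of the mitochondrial ribosome (0.88), Cacybp (0.87), the 14-3-3 gene Ywhae (0.87) and Rbbp9 (0.85). Hnrnph2, Chchd2, Fdxacb1, Eef2kmt and Ftsj3 followed at 0.83 to 0.82. The members' own r with that profile ran from -0.51 (Cct3) to 0.89 (Cct8). With at least 100 CPM 4 of the 10 genes remained, and over the KO libraries alone 0 of the 10, so the list rests on the groups chosen.

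Genes that work with CCT were then read from lists. limma called 66.5% of all genes in clusters 3, 4 and 5, 33.1% in all germ cells and 4.30% in cluster 2, so a list with about 2 in 3 of its genes called in clusters 3, 4 and 5 is near the background, and its count is not a result about the list. That class sets KO clusters 4 and 5 mostly against WT cluster 3, so genotype and cluster cannot be told apart in its values. Prefoldin hands unfolded actin and tubulin to CCT. Of its 6 subunits limma called 2 higher (Pfdn2, log2 0.46, and Pfdn6, 0.30) and 2 lower (Vbp1, -0.45, and Pfdn5, -0.42) in clusters 3, 4 and 5. edgeR called these 4 as well, with Pfdn4 beside them under RLE scaling, and DESeq2 only the 2 lower. In all germ cells limma called 1 lower (Vbp1, -0.35) and 0 higher, and DESeq2 called 0. In cluster 2 limma, edgeR and DESeq2 each called 0 of the 6, and limma had 1 at an unadjusted p under 0.05. Of the 3 phosducin-like and thioredoxin-like co-chaperones measured, Pdcl3 rose in each class by limma, edgeR and DESeq2. It stood at 94.6 and 79.0 CPM in KO cluster 2, against 37.8 CPM in WT (log2 1.11, SE 0.14; limma adjusted p = 0.0020). In KO clusters 4 and 5 it stood at 65.6 to 91.5 CPM, and in WT cluster 3 at 23.4 CPM. In cluster 1 the KO libraries held 72.6 and 66.0 CPM, against 73.2 CPM in WT, where WT lay just above both. Pdcl and Txndc9 did not pass limma's test in any class, though edgeR called both lower in all germ cells. Cct6b, the testis-specific copy of the ζ subunit, had 31 and 49 UMIs in the KO libraries, against 30 in WT, under the level tested.

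Among the clients of CCT, limma called 4 of 7 tubulin genes measured in clusters 3, 4 and 5 higher, among them Tuba1b (log2 3.82) and Tubb5 (2.93), which have near-identical copies, and 1 lower (Tuba4a, -0.68). edgeR called 3 higher and 1 lower, and DESeq2 4 higher, with Tubb4b in place of Tubb6, and 0 lower. Both actin genes were higher in KO there, Actb by 1.56 and Actg1 by 0.76. Both were called by edgeR and DESeq2 as well. WT cluster 3 held 273 CPM of Actb and 548 CPM of Actg1. In cluster 4 Actb stood at 699 and 828 CPM in KO, against 657 CPM in the 24 WT cells. Actg1 stood at 915 and 993 CPM there, against 856 CPM. Tuba1b (59.7 and 68.3, against 12.7 CPM) and Tubb5 (249 and 219, against 16.9 CPM) differed more within cluster 4. Of 12 other clients limma called 8 higher, among them the mitotic kinase Plk1 (2.41), Fzr1 (1.91), Gnb4 (1.82) and Cdc20 (1.26), and 2 lower, edgeR 7 and 1, and DESeq2 6 and 1. Within cluster 4 Plk1 stood at 328.0 and 330.4 CPM in KO, against 330.5 CPM in WT. Fzr1 stood at 140.3 and 154, against 144, Cdc20 at 507 and 515, against 669, and Gnb4 at 72.0 and 68.3, against 25.4. WT cluster 3 held 41.0 CPM of Plk1, 21.2 of Fzr1, 163 of Cdc20 and 19.0 of Gnb4. The 10 of 12 in limma stand beside the 66.5% of all genes. In cluster 2 limma and DESeq2 called 0 of 7 tubulin genes, limma had 3 at an unadjusted p under 0.05, and edgeR called 3 higher (Tubb6, Tubb5 and Tuba1b). Of the 2 actin genes 0 were called in cluster 2 by limma, edgeR or DESeq2, with 0 at an unadjusted p under 0.05 in limma, and of 13 other clients 1 was called higher (Gnb4, 0.55; limma adjusted p = 0.0454), by limma and edgeR and not by DESeq2, which called 0 of the 13 with 1 at an unadjusted p under 0.05. In all germ cells limma called 0 of 2 actin genes, 0 of the 9 HSP70 and HSP90 genes, 0 of the chaperonin pair of mitochondria and 0 of 2 heat shock factors, with 0, 2, 1 and 0 at an unadjusted p under 0.05. Of these DESeq2 called Hspa5 and Hsp90b1 lower and edgeR called Hspa14 lower with RLE scaling only. In all germ cells limma called 3 of 9 tubulin genes higher (Tubb5, 0.87, Tubb2a, 0.68, and Tuba1b, 0.66) and 1 lower (Tuba1a, -0.53), beside 33.1% of all genes. edgeR called the same 3 higher and Tubg1 lower in place of Tuba1a, and DESeq2 called Tubb5 and Tuba1b alone. The UMIs of Tuba1a lay mostly in cluster 1, at 82.1 and 103 CPM in KO, against 159 CPM in WT, beside the myoid markers given above, and their part in it was not tested. Tubulin cofactors had 2 of 4 higher in the later cells (Tbcb, 0.74, and Tbcc, 0.58, the second not in DESeq2).

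Of the other chaperones, Hspe1 of the mitochondrial chaperonin pair was higher in clusters 3, 4 and 5 (log2 0.74), and its partner Hspd1 did not pass (-0.10). Of 9 HSP70 and HSP90 genes 3 rose there in limma, among them Hspa14 (0.36) and Hspa4 (0.35), and the endoplasmic reticulum chaperones Hspa5 (-0.88) and Hsp90b1 (-0.82) fell. DESeq2 called only the 2 that fell. Of the heat shock factors Hsf2 rose there in limma (0.31) and not in edgeR or DESeq2, and Hsf1 did not pass (0.13). Of the CCT-like proteins of Bardet-Biedl syndrome, Mkks was measured there and rose in limma and edgeR (0.86) but not in DESeq2. Hsf2, Mkks, Tuba1b, Tuba4a, Tubb2a, Tubb6, Gnb4, Pdcl3, Vbp1 and Tbcc are among the genes of low level whose calls in this class are less certain, as given above.

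The authors' deposited gene table gives each gene a score that its name ties to U-rich motifs, without a description of how it was made. Cct4 had 0.031, above 93.8% of the genes, and Cct8 0.027, above 89.7%. Cct2 and Cct7 had 0.018 and 0.016, Tcp1 and Cct3 0.005 each, and Cct5 0, where the median gene had 0.011. Reads of the members could be shared with other genes: RefSeq lists 5 pseudogenes of Cct7, 3 of Cct3, 2 each of Tcp1 and Cct8 and 1 of Cct4, with 0 in the matrix. Tcp1 overlaps Mrpl18, Cct7 overlaps Pradc1 and Cct8 overlaps Usp16 at an end, and no source used here says whether counting used strand.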

How the data were processed

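Per the submitters' processing notes, the study used Cell Ranger 3.0.2 and Scanpy with the mouse build mm10/GRCm38. The expression matrix that the authors deposited holds natural log values, ln(1 + UMI count/size factor), of 4528 cells. Their deposited cell table adds the cluster, the size factor (a score), the UMI count and the mitochondrial fraction of each cell, and their deposited gene table the U-motif score. No deposited cell had fewer than 3000 genes. Undoing the scaling gave whole counts for 100% of values (tolerance 0.001) that hold 99.9% of the deposited UMIs. The edgeR test planned for raw counts was replaced by limma as the main test, because the matrix is normalised, and edgeR and DESeq2 were run on the recovered counts.

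For each library and class of cells the average count/size factor per cell (normalised UMIs per cell) was computed. Genes averaging 0.05 or more entered limma 3.58.1 (R 4.3.3) on log2(value + 0.01), which understates changes of low genes. Alternatives were edgeR 4.0.16, DESeq2 1.42.0, other pseudocounts, no filter, left-out cells, thinning and leaving out each KO library. CPM divide summed counts by summed UMIs, so deep cells weigh more in CPM. Intervals are at 95% and cover counting error only. KO A and KO B were compared over 14029 genes and differed by more than sampling noise (chi-square 13.8 per degree of freedom), and neither could be tied to a particular KO sample. Scrublet (Scanpy 1.11.5) marked 5, 11 and 6 doublets in KO A, KO B and WT, too few to show that it worked in every library, and they were kept. The steps were tested on simulated data: in clusters 3, 4 and 5 unchanged genes, mostly of low level, were called more often than the threshold allows. The members and lists were chosen with earlier results of these data known. All members are named, and of each other list up to 4 genes with the smallest p.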

Additional observations from a re-analysis of the deposited data

Results flagged for a closer look

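For 3 subunits the KO minus WT difference itself differed between clusters 3, 4 and 5 and cluster 2, by limma's test of that difference with adjustment over all genes. On the log2 scale it was 0.44 for Cct5 (limma adjusted p = 2.3e-05), where KO minus WT was 0.15 in clusters 3, 4 and 5 and -0.29 in cluster 2. For Cct8 it was 0.38 (limma adjusted p = 2.9e-04), from 0.00 and -0.38. For Cct7 it was 0.25 (limma adjusted p = 0.0188), from 0.19 and -0.06. These 3 of 7 stand beside 50.4% of 9823 genes called and 29.0% called in this direction, so the count is not a result about the members. With each KO library set against the same WT library the values were 0.46 and 0.43 for Cct5, 0.36 and 0.40 for Cct8 and 0.25 and 0.26 for Cct7. Since both subtract that WT library their common sign is no independent support. The later class sets KO clusters 4 and 5 against mostly WT cluster 3, so genotype and cluster cannot be told apart in it.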

How the results depend on the processing

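The single-cell groups have 1 WT library, so a spread of WT was not measured, and the 24 WT cells of cluster 4 are the only WT match for most later KO cells. Cct4 was the 1 subunit called in all germ cells under the 10 alternatives with a test (log2 -0.39 to -0.51, adjusted p 0.0051 to 0.0210), and Cct5, Cct7 and Cct8 were the 3 called for the step between classes under its 4 alternatives. Without KO A and KO B Cct4 in all germ cells was -0.44 and -0.57. No paired analysis was possible because WT has 1 library, so KO and WT share fewer than 2 replicate numbers. Leaving out WT gives no comparison.

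In clusters 1 and 2 the count of subunits called was 1 in place of 0 with no filter, with TMM in limma, with edgeR (TMM and RLE), without called doublets, without cells with muscle, stroma or globin UMIs and after thinning, and in each it was Cct4. In cluster 2 it was 2 with TMM in limma and with edgeR (TMM and RLE), and 1 in the last 2 of these settings. In clusters 3, 4 and 5 it was 2 in place of 1 with a pseudocount of 0.1, TMM in limma, edgeR (TMM and RLE), DESeq2 and without doublets, and 3 after thinning (Cct5 and Cct7 higher, Cct4 lower), with KO cluster 4 only and with KO cluster 5 only.

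Sign changes were confined to values that were not called. Cct7 in all germ cells (0.020) was -0.030 with TMM in limma and in edgeR, -0.042 with edgeR RLE and with DESeq2, and -0.020 and 0.061 without KO A and KO B. After thinning Cct7 was 0.0078 in clusters 1 and 2 and 0.023 in cluster 2, and Cct2 0.020 in clusters 3, 4 and 5. Cct8 in clusters 3, 4 and 5 (0.00) was -0.041 with TMM in limma, -0.040 with TMM in edgeR and with KO cluster 4 only, -0.060 with edgeR RLE and DESeq2, -0.0018 without doublets, and 0.041 and -0.037 without KO A and KO B. In the step between classes Tcp1 (0.01) was -0.022 with clusters 1 and 2 in place of cluster 2, and -0.066 and 0.088 without KO A and KO B, where Cct4 (0.00) was -0.056 and 0.054. The cause was not tested.

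The summed level in cluster 1 was 3744 and 3693 in KO, against 3501 in WT as a mean of normalised UMIs per cell on the CPM scale, 3697 and 3796, against 3400.0, after thinning, and 4398 and 4312, against 4409, without cells with muscle, stroma or globin UMIs, so its order between the genotypes rests on those cells. In cluster 2 it was 3449.9 and 3487, against 4127, and after thinning 3431 and 3450.4, against 4122. Thinning moved the median of all genes to 0.12 in all germ cells and 0.22 in clusters 3, 4 and 5. Of the 10 genes most like the members 4 were shared at 100 CPM or more and 0 over KO alone.

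Counts over all genes moved more. In cluster 2 limma called 271 higher and 135 lower, edgeR (TMM) 763 and 649, DESeq2 26 and 24, limma without a filter 2 and 1, and limma without doublets 92 and 21. In clusters 1 and 2 limma called 328 and 162, edgeR (RLE) 427 and 453 and DESeq2 22 and 41, in all germ cells limma 1759 and 1429 and DESeq2 561 and 651, and in clusters 3, 4 and 5 limma 3480 and 2703 and DESeq2 1720 and 1882.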
